A study of Mus musculus with 7 samples.

Results

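The voltage-gated sodium and calcium channel genes were read from the table of normalized counts as every gene symbol beginning with Scn followed by a number and a or b, or with Cacna, Cacnb or Cacng. This rule uses names alone and gave 40 of the 19257 genes of the table. They fell into 10 sodium channel alpha subunits (Scn alpha), 4 sodium channel beta subunits (Scn beta), 10 calcium channel alpha1 subunits (Cacna1), 4 alpha2delta subunits (Cacna2d), 4 calcium channel beta subunits (Cacnb) and 8 gamma subunits and relatives (Cacng). RNA came from endpoint mouse brain tumors and was sequenced in bulk as poly(A) libraries. The 3xCR group (3 libraries, genotype control, replicates 2 to 4) carried tumors induced by in utero electroporation of a CRISPR-Cas9 construct against tumor suppressors, Trp53 and Nf1 among them. The GPC6 group (4 libraries, genotype GPC6, replicates 1 to 4) received the same construct together with GPC6, a glypican of the cell surface, overexpressed from a piggyBac transposon. Electroporated cells could carry a fluorescent reporter, and the tissue was taken under fluorescence microscopy, so a library held tumor cells and whatever brain was dissected with them. Mice of both sexes on CD-1 and C57BL/6 backgrounds were used, and the age, sex and background behind each library are not given in the sources used here.

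Voltage-gated channels open when the membrane depolarizes. Sodium channels, built from a pore-forming alpha subunit and adhesion-type beta subunits, carry the upstroke of the action potential in neurons. Calcium channels turn depolarization into calcium entry that drives transmitter release and gene expression, and their beta and alpha2delta subunits bring the pore to the surface. Several gamma subunits are better known as TARPs, which escort AMPA receptors to synapses, and some of these are found in oligodendrocyte precursors and other glia.

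The libraries held 7197692 to 18879762 reads on genes. The Gpc6 gene itself had 126 to 226 normalized counts in the 3xCR libraries, and 675, 263, 3434 and 5084 in GPC6 replicates 1 to 4, so replicate 2 lay close to the 3xCR range. The labelled tissue was brain, and no gene of the pan-neuronal, astrocyte, oligodendrocyte and microglial marker lists was at 0 in any library. The same held for endothelial, mural and proliferating cell lists, so this does not single out brain. Of the neuron subtype markers, Neurod6, Tbr1, Vip and Drd2 were among those at 0 in at least 1 library. All 15 of 15 pan-neuronal markers (Snap25, Syt1, Tubb3 and others) were on average higher in GPC6 on the log2 scale, with summed levels of 6739 to 14308 normalized counts in 3xCR and 9196 to 92521 in GPC6. GPC6 replicate 1 stood apart, as its 10 proliferation markers summed to 677 normalized counts against 5271 to 14357 in the other 6 libraries. Its 8 hypothalamic neuron markers summed to 1230 against 24.9 to 99.4 elsewhere, with Avp at 541 and Oxt at 428 making up most of that sum. All 10 of 10 microglial markers were on average lower in GPC6, with summed levels of 36355 to 65294 normalized counts in 3xCR and 18518 to 33091 in GPC6. The part of these markers in the channel results was not tested, and in bulk tissue fewer neurons and less RNA per neuron cannot be told apart.

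To show the regulatory sequence next to these genes, the 250 bases before the transcription start were taken from RefSeq (GRCm38.p6). Of the 40 genes, 30 matched an entry, with 41 windows in all. The 6 windows below were chosen because each ends right before the GENCODE gene start, holds no annotated exon base and belongs to a gene described later. The bases that follow each window also had to match an annotated transcript of the gene on its strand. They are the N-type channel gene Cacna1b (chr2:24763153-24763402, minus strand), the T-type channel gene Cacna1i (chr15:80286988-80287237, plus strand), the alpha2delta genes Cacna2d1 (chr5:15934441-15934690, plus strand) and Cacna2d3 (chr14:29721865-29722114, minus strand), the sodium channel gene Scn9a (chr2:66634963-66635212, minus strand) and the TARP relative Cacng5 (chr11:107915056-107915305, minus strand). They are written 5′ to 3′ on the gene's strand, with CpG dinucleotides in capitals.
Cacna1b: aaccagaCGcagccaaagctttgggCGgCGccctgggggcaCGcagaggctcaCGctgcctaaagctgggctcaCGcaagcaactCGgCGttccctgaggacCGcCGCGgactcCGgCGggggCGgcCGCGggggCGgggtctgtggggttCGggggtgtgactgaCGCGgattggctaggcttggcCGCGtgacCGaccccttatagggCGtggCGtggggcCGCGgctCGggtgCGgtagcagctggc
Cacna1i: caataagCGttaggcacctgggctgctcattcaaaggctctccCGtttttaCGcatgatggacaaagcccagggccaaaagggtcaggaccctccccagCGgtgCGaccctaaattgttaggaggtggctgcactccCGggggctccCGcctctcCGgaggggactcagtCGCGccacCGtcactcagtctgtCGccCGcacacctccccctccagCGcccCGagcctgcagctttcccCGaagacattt
Cacna2d1: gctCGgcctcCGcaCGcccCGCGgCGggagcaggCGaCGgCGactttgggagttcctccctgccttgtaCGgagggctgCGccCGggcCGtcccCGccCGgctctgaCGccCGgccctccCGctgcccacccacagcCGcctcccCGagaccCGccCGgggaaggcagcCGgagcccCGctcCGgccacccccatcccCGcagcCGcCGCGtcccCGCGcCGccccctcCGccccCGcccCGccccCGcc
Cacna2d3: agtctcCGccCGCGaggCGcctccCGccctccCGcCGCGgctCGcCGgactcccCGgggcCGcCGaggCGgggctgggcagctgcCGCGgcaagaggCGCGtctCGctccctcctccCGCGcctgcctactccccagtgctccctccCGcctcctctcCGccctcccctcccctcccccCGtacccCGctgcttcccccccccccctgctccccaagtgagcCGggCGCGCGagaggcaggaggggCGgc
Scn9a: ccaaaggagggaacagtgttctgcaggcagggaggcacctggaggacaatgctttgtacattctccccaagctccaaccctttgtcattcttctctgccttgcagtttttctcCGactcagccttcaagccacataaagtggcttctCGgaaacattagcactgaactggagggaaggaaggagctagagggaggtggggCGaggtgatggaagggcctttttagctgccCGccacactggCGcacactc
Cacng5: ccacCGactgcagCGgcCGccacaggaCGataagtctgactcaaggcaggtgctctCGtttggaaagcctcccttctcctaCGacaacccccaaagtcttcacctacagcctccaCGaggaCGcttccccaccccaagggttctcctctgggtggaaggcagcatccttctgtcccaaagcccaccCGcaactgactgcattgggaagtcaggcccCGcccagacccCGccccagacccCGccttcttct
Cacna2d1 had 36 CpG dinucleotides in its window, Cacna2d3 30, Cacna1b 29, Cacna1i 16, Cacng5 12 and Scn9a 5, against a median of 6 over all 32851 windows of the table. Over the 41 windows of channel genes the median was 8, with a GC content of 56.8% against 52.4% over all windows. A GC box (GGGCGG, either strand) was present in 15 of the 41 windows (36.6%, against 32.7% of all windows) and a TATA box (TATAAA, either strand) in 2 (4.88% against 12.4%). The letters TTCAGCACC, the left part of the RE1 element bound by the neuronal repressor REST, were in 0 of the 41 windows and in 0.301% of all windows. The letters GGACAGC, its right part, were in 1 window, that of Cacnb1 (2.44% against 5.28%). Between libraries, the levels of the genes behind the 6 windows ranged 2.40-fold for Cacng5, 8.71-fold for Scn9a, 19.3-fold for Cacna2d3, 20.48-fold for Cacna2d1, 21.6-fold for Cacna1b and 41.7-fold for Cacna1i.

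The comparison asked whether channel genes differ between GPC6 and 3xCR tumors. Of the 40 genes, 34 had a mean of at least 10 normalized counts and were tested. The mean log2 value was higher in GPC6 for 31 of the 34 and lower for 3 (Cacna1s, Cacng4 and Cacng5), whereas 48.3% of all 14782 genes tested were higher in GPC6. The median log2 fold change of the 34 was 1.25, against -0.02 over all genes tested. With limma and Benjamini-Hochberg adjustment over all genes tested, 0 of the 34 passed an adjusted p under 0.05, as did 0% of all genes, and the smallest adjusted p of a channel gene was 0.730. An unadjusted p under 0.05 was found for 5 of 34 (Cacna1c, Cacna2d2, Cacng3, Cacna1b and, just under this threshold, Scn2a1), against 4.66% of all genes. On recovered reads, edgeR gave 10 at an unadjusted p under 0.05 (6.7% of all genes), DESeq2 gave 20 (12.5%) and limma voom gave 1 (3.38%), and each gave 0 at an adjusted p under 0.05 (0% of all genes with edgeR and voom, 0.0879% with DESeq2). Weighting the libraries by their estimated precision gave 18 of 34 at an adjusted p under 0.05 (13.3% of all genes), with a weight of 8.71 for 3xCR replicate 3, 4.47 for GPC6 replicate 3 and 0.301 to 0.849 for the other 5.

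The 4 GPC6 libraries did not lie together. GPC6 replicate 1 held the highest value of 30 of the 34 genes (31.3% of all genes), and GPC6 replicate 3 came second for 27 of these 30. 3xCR replicate 4 held the lowest value of 21 of the 34 (22.2% of all genes), and GPC6 replicate 4 held the lowest value of 8. GPC6 replicates 2 and 4 each lay below 3xCR replicate 2 for 26 of the 34 genes. Both groups were free of overlap for 1 of the 34 genes, Cacna1c, against 6.32% of all genes. The plot of values by library shows the position of each.

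**Figure D1:**
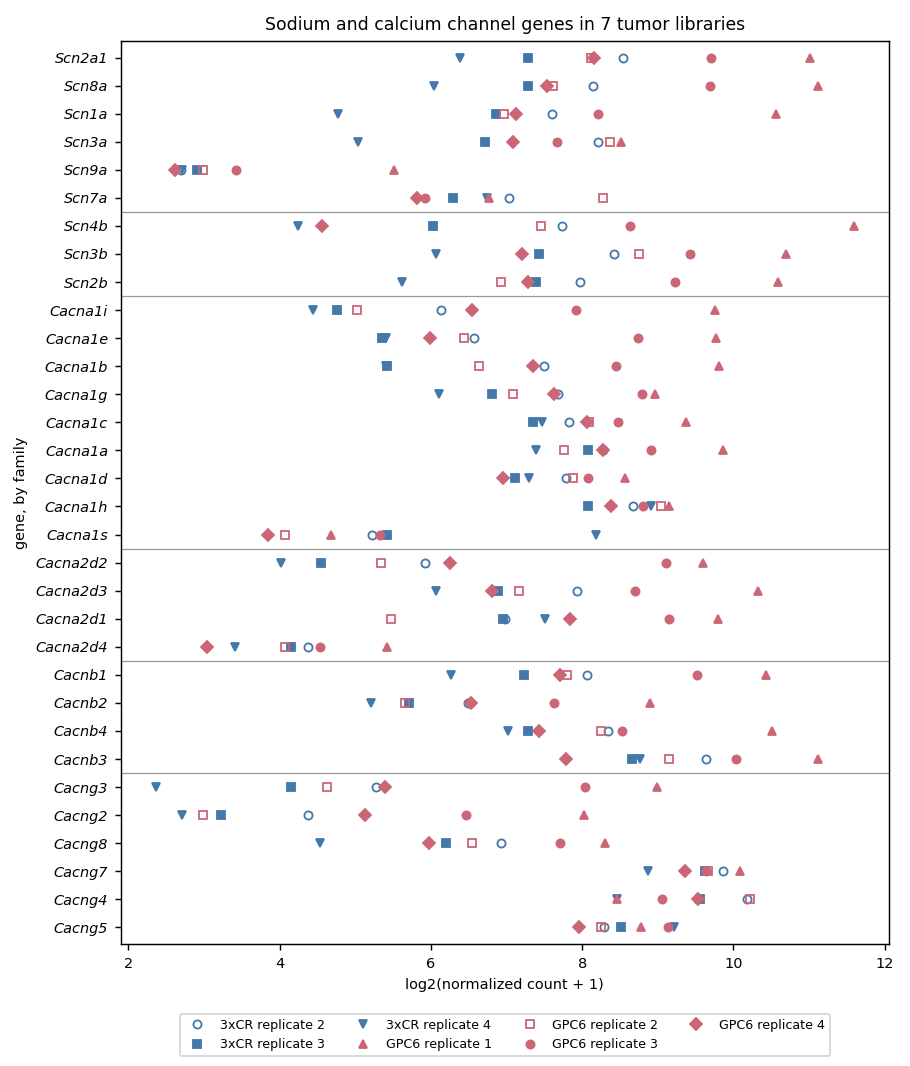
Values of 32 tested channel genes in each library, as log2(normalized count + 1), with genes grouped by family and ordered by the difference between groups. Blue symbols are the 3 3xCR and red symbols the 4 GPC6 libraries; GPC6 replicate 1 (red triangles) is the highest point for 28 of the 32 genes, and only Cacna1c has all red symbols to the right of all blue ones.

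**Figure D2:**
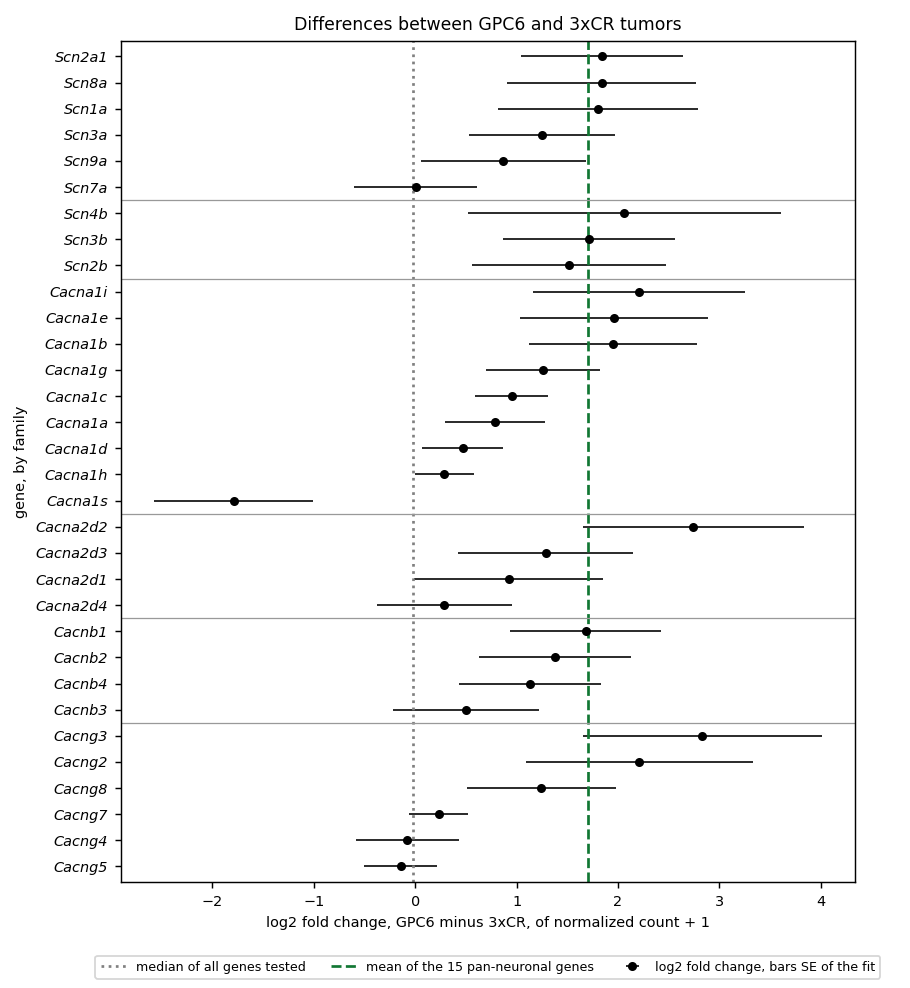
Log2 fold change of 32 tested channel genes, GPC6 minus 3xCR, with the standard error of the limma fit. The dotted line is the median of all genes tested (-0.02) and the dashed line the mean difference of the 15 pan-neuronal genes (1.71); 29 of 32 points lie above 0, and 0 passed an adjusted p under 0.05.

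Among the 10 sodium channel alpha subunits, 7 were tested, all 7 higher on average in GPC6 and 1 at an unadjusted p under 0.05. The median log2 fold change of the 7 was 1.25. Scn2a1, the gene of the alpha subunit of axon initial segments of excitatory neurons, had the highest mean. It had 369, 155 and 82.9 normalized counts in 3xCR replicates 2 to 4 and 2059, 276, 831 and 285 in GPC6 replicates 1 to 4. GPC6 replicates 1 and 3 were above every 3xCR library, while replicates 2 and 4 lay between 3xCR replicates 2 and 3, so the groups overlapped. Its log2 fold change was also the largest of the family, 1.84 ± 0.80 (SE, limma adjusted p = 0.730). Scn8a, another action potential channel of mature neurons, and Scn1a, which is prominent in inhibitory interneurons, had log2 fold changes of 1.84 ± 0.93 and 1.80 ± 0.99 (SE). Scn1a averaged 112 ± 83.4 normalized counts in 3xCR (SD, n = 3) and 516 ± 664 in GPC6 (SD, n = 4), with 1506 in GPC6 replicate 1. Scn3a, an alpha subunit best known from the developing brain, had a log2 fold change of 1.25 ± 0.72 (SE).

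Scn7a, which encodes the atypical sodium-sensing channel Nax and is expressed by glia, had another order of libraries. It had 130.5, 77.2 and 106 normalized counts in 3xCR replicates 2 to 4, and 108, 308, 59.4 and 55.6 in GPC6 replicates 1 to 4. Its highest value lay in GPC6 replicate 2, the library that was also highest in oligodendrocyte precursor markers (9 genes summing to 85568 normalized counts, against 15789 to 61124 elsewhere), and GPC6 replicates 3 and 4 were its lowest. The groups overlapped and its log2 fold change was 0.0043 ± 0.61 (SE, limma adjusted p = 0.999). The part of oligodendrocyte precursors in this value was not tested. Scn9a, the alpha subunit of pain-sensing neurons, ranged from 5.14 to 44.8 normalized counts and was highest in GPC6 replicate 1. Its log2 fold change was 0.87 ± 0.81 (SE).

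The beta subunits spanned the widest ranges of the sodium channel genes. All 4 were tested, all 4 were on average higher in GPC6 and 0 had an unadjusted limma p under 0.05, with a median log2 fold change of 1.61. Scn4b, the beta subunit linked to resurgent current and abundant in striatal neurons, had 211, 64.2 and 18.0 normalized counts in 3xCR replicates 2 to 4 and 3087, 174, 397 and 22.6 in GPC6 replicates 1 to 4. GPC6 replicate 1 alone was far above the rest, and replicate 4 was below 3xCR replicates 2 and 3. The 172-fold distance between its highest and lowest library was the widest of the 34 genes, and its log2 fold change was 2.06 ± 1.54 (SE, limma adjusted p = 0.738). The 10 striatal projection neuron markers, summed, likewise ran from 967 normalized counts in 3xCR replicate 4 and 988 in GPC6 replicate 4 to 25152 in GPC6 replicate 1. Their part in the Scn4b level was not tested. Scn3b had the smallest p of the family. Its values were 341, 172 and 66.3 in 3xCR replicates 2 to 4 and 1662, 432, 688 and 146 in GPC6 replicates 1 to 4, so that GPC6 replicate 4 overlapped the 3xCR range, with a log2 fold change of 1.71 ± 0.84 (SE, limma adjusted p = 0.730). Scn2b, which is joined to the alpha subunit by a disulfide bond, averaged 155 ± 100.8 in 3xCR (SD, n = 3) and 604 ± 662 in GPC6 (SD, n = 4).

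Of the 10 calcium channel alpha1 genes, 9 were tested, 8 were on average higher in GPC6 and 1 lower, and 2 had an unadjusted p under 0.05. The median log2 fold change was 0.95. The L-type channel gene Cacna1c, which couples depolarization to gene expression in neurons, was the gene whose groups did not overlap. It had 226, 163 and 175 normalized counts in 3xCR replicates 2 to 4 and 662, 272, 354 and 266 in GPC6 replicates 1 to 4. The lowest GPC6 library, replicate 4, was above the highest 3xCR library, replicate 2, and the log2 fold change was 0.95 ± 0.36 (SE, limma adjusted p = 0.730). The other L-type gene of neurons, Cacna1d, had a log2 fold change of 0.47 ± 0.40 (SE) and overlapping groups.

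The channel genes of presynaptic terminals had log2 fold changes of unlike size, and the differences between these genes were not tested. Cacna1b, the N-type channel whose CpG-rich window is printed above, averaged 87.3 ± 79.1 normalized counts in 3xCR (SD, n = 3) and 376 ± 361 in GPC6 (SD, n = 4), with a log2 fold change of 1.95 ± 0.83 (SE, limma adjusted p = 0.730). Cacna1a, the P/Q-type channel, had a log2 fold change of 0.79 ± 0.50 and Cacna1e, the R-type channel, 1.96 ± 0.92 (SE). The T-type channels, which open near rest and support burst firing, had unlike values. Cacna1i had 69.1, 26.0 and 20.7 normalized counts in 3xCR replicates 2 to 4 and 864, 31.6, 241 and 92.6 in GPC6 replicates 1 to 4, and only GPC6 replicate 2 fell within the 3xCR range. Its log2 fold change, 2.20 ± 1.04 (SE, limma adjusted p = 0.730), was the largest of the family. Cacna1h, the T-type gene of highest mean, had 408, 269.8 and 478 in 3xCR replicates 2 to 4 and 566, 525, 444 and 333 in GPC6 replicates 1 to 4. Its libraries lay within 2.10-fold of each other, the groups overlapped and the log2 fold change was 0.29 ± 0.29 (SE, limma adjusted p = 0.782). Cacna1g, the remaining T-type gene, had a log2 fold change of 1.26 ± 0.56 (SE).

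Cacna1s, the alpha1 subunit of skeletal muscle, was the channel gene with the lowest log2 fold change. It had 36.2, 41.9 and 289 normalized counts in 3xCR replicates 2 to 4, and 24.7, 15.8, 39.0 and 13.4 in GPC6 replicates 1 to 4. The mean difference was carried by 3xCR replicate 4, and GPC6 replicate 3 lay between 3xCR replicates 2 and 3. The log2 fold change was -1.79 ± 0.78 (SE, limma adjusted p = 0.730) and, without 3xCR replicate 4, -0.84. The 10 skeletal muscle markers summed to 47.4 to 63.5 normalized counts in 3xCR and 24.7 to 215 in GPC6. Of them, 7 averaged under 10. Myh2 and Myog, also at 0 in GPC6 replicate 2, were at 0 in 3xCR replicate 4, the library of highest Cacna1s. Tnni2 was at its highest there, at 27.6. Of the 9 mural markers, Acta2, Tagln and Pdgfrb were at their highest in the same library and Rgs5 and Notch3 at their lowest, and the 9 summed to 3821 normalized counts there against 903 to 2009 elsewhere. Their part in the Cacna1s value was not tested. Of the exon bases of Cacna1s, 19.98% are shared with Gm37759 on the opposite strand, and whether strand was used in counting is not stated.

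The alpha2delta subunits, which bind gabapentin in the case of Cacna2d1 and Cacna2d2, were all 4 tested, all 4 were on average higher in GPC6 and 1 had an unadjusted p under 0.05, with a median log2 fold change of 1.10. Cacna2d3 had the highest mean, with 242, 117 and 66.3 normalized counts in 3xCR replicates 2 to 4 and 1278, 142, 415 and 111 in GPC6 replicates 1 to 4. GPC6 replicates 1 and 3 were above all 3xCR libraries and replicates 2 and 4 were not, and the log2 fold change was 1.29 ± 0.86 (SE, limma adjusted p = 0.731). Cacna2d2 had the largest difference of the family, with 59.7, 22.3 and 15.2 in 3xCR replicates 2 to 4 and 773, 39.5, 549 and 75.1 in GPC6 replicates 1 to 4. Here only GPC6 replicate 2 lay within the 3xCR range, and the log2 fold change was 2.74 ± 1.09 (SE, limma adjusted p = 0.730). Cacna2d4, a subunit known from photoreceptors, had the smallest difference, with 19.7, 16.7 and 9.67 in 3xCR replicates 2 to 4 and 41.7, 15.8, 22.2 and 7.20 in GPC6 replicates 1 to 4, and a log2 fold change of 0.29 ± 0.66 (SE, limma adjusted p = 0.905). Cacna2d1 averaged 143 ± 33.0 in 3xCR (SD, n = 3) and 433 ± 375 in GPC6 (SD, n = 4), and its lowest library was GPC6 replicate 2 at 43.5.

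The 4 intracellular calcium channel beta subunits were all tested, all 4 were on average higher in GPC6 and 0 had an unadjusted limma p under 0.05, with a median log2 fold change of 1.25. Cacnb3 had the highest mean, with 795, 403 and 434 normalized counts in 3xCR replicates 2 to 4 and 2226, 565, 1044 and 219 in GPC6 replicates 1 to 4. Its lowest library was a GPC6 library, replicate 4, and its log2 fold change of 0.50 ± 0.72 (SE, limma adjusted p = 0.846) was the smallest of the family. Cacnb1, first known as the beta subunit of skeletal muscle and also made in brain, had 266, 149 and 76.0 in 3xCR replicates 2 to 4 and 1379, 221, 734 and 208 in GPC6 replicates 1 to 4. GPC6 replicates 1 and 3 were above the 3xCR range and replicates 2 and 4 lay inside it, and the log2 fold change of 1.68 ± 0.74 (SE, limma adjusted p = 0.730) was the largest of the family. Cacnb2 and Cacnb4, the latter the gene mutated in the lethargic mouse, had log2 fold changes of 1.38 ± 0.75 and 1.13 ± 0.70 (SE). Of the exon bases of Cacnb4, 16.0% are shared with A430018G15Rik on the opposite strand.

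The gamma subunits split by their level and by their spread. Of 8 genes, 6 were tested, 4 higher and 2 lower on average in GPC6 and 1 at an unadjusted p under 0.05, with a median log2 fold change of 0.74. The neuronal TARPs Cacng2 (stargazin), Cacng3 and Cacng8 had log2 fold changes of 2.21 ± 1.12, 2.83 ± 1.18 and 1.24 ± 0.73 (SE). Cacng3, the largest difference of the 34 genes, had 37.8, 16.7 and 4.14 normalized counts in 3xCR replicates 2 to 4, the last equal to 3 reads, and 505, 23.7, 263 and 41.2 in GPC6 replicates 1 to 4. Only GPC6 replicate 2 lay within the 3xCR range (limma adjusted p = 0.730).

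Cacng4, Cacng5 and Cacng7, TARP genes also expressed in glia, were the more abundant gamma genes per kb of exon, with a mean of 202, 105 and 323 normalized counts per kb, against 10.9 for Cacng2, 45.9 for Cacng3 and 54.4 for Cacng8. Cacng7 had 933, 786 and 465 normalized counts in 3xCR replicates 2 to 4 and 1082, 806, 792 and 653 in GPC6 replicates 1 to 4, within 2.32-fold of each other, with a log2 fold change of 0.23 ± 0.29 (SE, limma adjusted p = 0.826). Cacng5 had 311, 363 and 595 in 3xCR replicates 2 to 4 and 436, 302, 562 and 248 in GPC6 replicates 1 to 4, highest in 3xCR replicate 4, where most channel genes were lowest. Its log2 fold change was -0.14 ± 0.36 (SE, limma adjusted p = 0.914). The sign turned without 3xCR replicate 4 (0.13), without GPC6 replicate 4 (0.046) and with library weights (0.43). Cacng4 averaged 752 ± 401 in 3xCR (SD, n = 3) and 703 ± 360 in GPC6 (SD, n = 4), with a log2 fold change of -0.08 ± 0.51 (SE), and its highest library was GPC6 replicate 2, at 1188, as for Scn7a. Its sign turned without 3xCR replicate 2 (0.31), GPC6 replicate 1 (0.21) or GPC6 replicate 3 (0.0079).

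The remaining 6 genes averaged under 10 normalized counts and were not tested. Scn10a, a channel of sensory neurons, had 41.7 normalized counts in GPC6 replicate 1 and at most 1.98 in the other 6 libraries, with 0 reads in 3 of them, which allows up to 1.64 normalized counts in 3xCR replicate 2, 2.79 in 3xCR replicate 3 and 3.09 in GPC6 replicate 4 (3 reads, counting error only). Scn11a, of the same cells, reached 9.76. Scn4a, the muscle alpha subunit, reached 2.06, and Cacng1, the muscle gamma subunit, 10.8. Cacna1f, the L-type channel of photoreceptors, reached 8.29 and Cacng6 15.1.

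Genes that lie next to each other on a chromosome ranged by different amounts. The tandem array between bases 65457118 and 66784914 of chromosome 2 (mm10) holds Scn3a, Scn2a1, Scn1a, Scn9a and Scn7a. The levels of its members ranged 11.4-fold, 24.8-fold, 57.4-fold, 8.71-fold and 5.55-fold between libraries, and Scn9a and Scn7a at its end lie 38.5 kb apart. On chromosome 7 Cacng7 and Cacng8 are 22.5 kb apart, with ranges of 2.32-fold and 14.3-fold. On chromosome 9 the beta subunit genes Scn2b and Scn4b are 8.32 kb apart, with ranges of 31.9-fold and 172-fold. On chromosome 6 Cacna1c lies 40.1 kb from Cacna2d4, with log2 fold changes of 0.95 and 0.29.

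The families were then set beside the pan-neuronal markers library by library. A score was computed per library as the mean log2 deviation of a list's genes from their means over the 7 libraries. The pan-neuronal score was -0.16, -0.92 and -1.85 in 3xCR replicates 2 to 4 and 2.47, -1.06, 1.58 and -0.06 in GPC6 replicates 1 to 4, a difference between group means of 1.71. All 6 family scores were highest in GPC6 replicate 1, between 1.38 (Cacng) and 2.90 (Scn beta), and second in GPC6 replicate 3, between 0.64 (Scn alpha) and 1.40 (Cacna2d). The families parted in GPC6 replicate 2, where the pan-neuronal score was -1.06 and the Scn alpha score -0.04, and in GPC6 replicate 4, where the Scn beta score was -1.14 and the pan-neuronal score -0.06. With the pan-neuronal score as a covariate, the median log2 fold change of the 34 genes was 0.0043 and 0 had an unadjusted limma p under 0.05. The covariate itself differed between the groups, so its share and that of the group could not be fully told apart with 7 libraries.

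**Figure D3:**
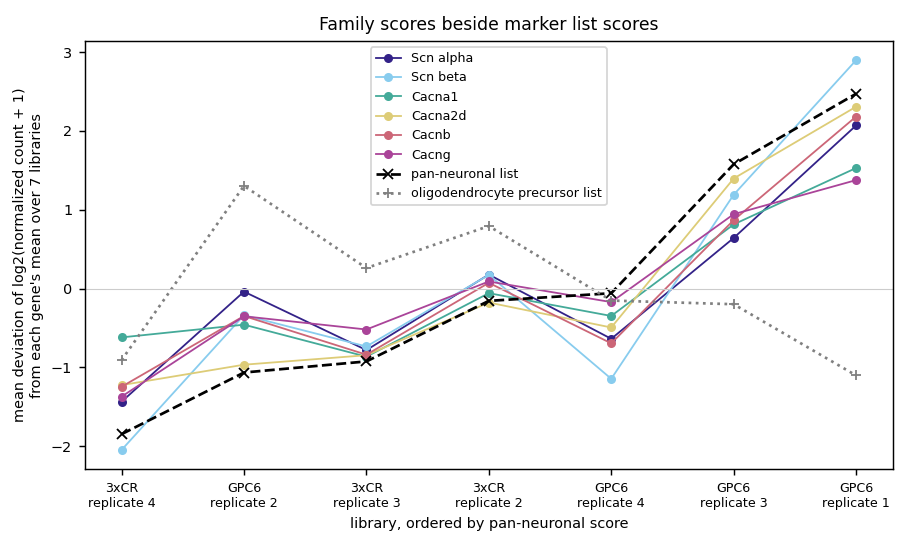
Score of each channel family per library (mean deviation of log2(normalized count + 1) from each gene's mean over the 7 libraries), with libraries ordered by the score of the 15 pan-neuronal genes (dashed). Every family is highest in GPC6 replicate 1 on the right (1.38 to 2.90), but the families do not rise steadily along this order. Scn beta lies at -1.14 in GPC6 replicate 4 and at -0.34 in GPC6 replicate 2, which stands further left. Cacna1 is lowest in 3xCR replicate 3 (-0.86). The oligodendrocyte precursor score (dotted) is highest in GPC6 replicate 2 (1.30).

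Relative to the pan-neuronal score of the same library, 23 of the 34 genes had a lower mean in GPC6 and 11 a higher one. A lower relative mean is also the rule over the whole table. The median log2 fold change of all genes tested, -0.02, lies below the pan-neuronal difference of 1.71. The count of 23 is therefore no mark of the channel genes. The groups did not overlap for 4 of the 34, 3 of which are described here, against 3.57% of all genes measured the same way. Cacng3 and Cacna2d2 were higher in GPC6 on this relative scale, by 1.13 and 1.04 in log2 units. Cacng3 lay at -0.11, -0.48 and -1.34 in 3xCR replicates 2 to 4 and at 0.96, 0.14, 0.92 and -0.09 in GPC6 replicates 1 to 4. Cacna2d2 lay at -0.32, -0.93 and -0.53 in 3xCR and at 0.73, 0.01, 1.13 and -0.09 in GPC6. Cacna1s was lower in GPC6, with a difference of -3.497 in log2 units. It lay at 0.12, 1.10 and 4.78 in 3xCR replicates 2 to 4 and at -3.03, -0.11, -1.50 and -1.34 in GPC6 replicates 1 to 4. Each of these 3 had a two-sided exact permutation p of 0.0571, the smallest that 3 against 4 libraries allow, so no relative difference could reach 0.05. Genes near the middle, such as Cacnb1 (-0.03), Scn3b (0.01) and Scn1a (0.10), differed between groups by nearly the pan-neuronal amount, and those at the lower end, Cacng4 (-1.78), Cacng5 (-1.85), Scn7a (-1.70) and Cacng7 (-1.48), overlapped between groups, with GPC6 replicate 2 above at least 1 3xCR library for each.

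**Figure D4:**
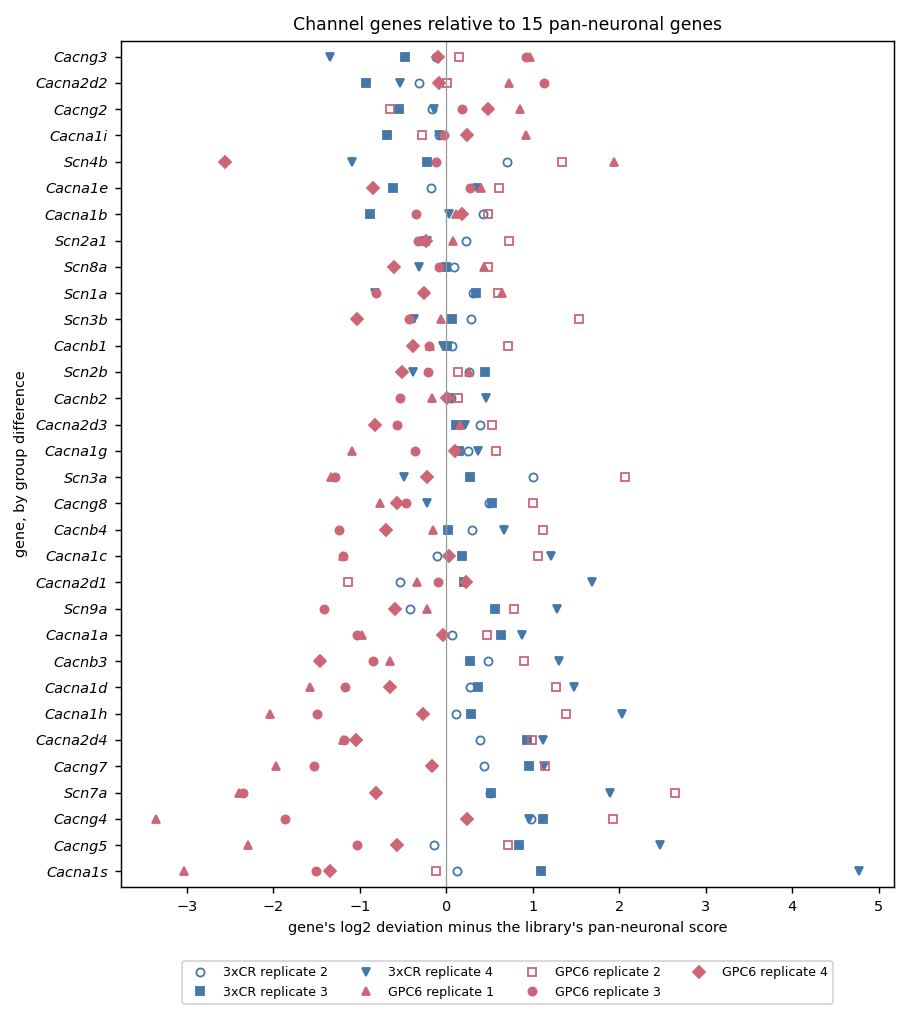
Log2 deviation of 32 channel genes minus the pan-neuronal score of the same library, with genes ordered by the difference between group means. Red GPC6 symbols lie wholly to the right of the blue 3xCR symbols for Cacng3 and Cacna2d2 at the top and wholly to the left for Cacna1s.

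The makeup of a family is unaffected by a scale that its members share, so each gene's share of its family's summed level per kb of exon was compared (34 shares, two-sided exact permutation tests, smallest possible p 0.0571). The groups did not overlap for 4 of the 34 shares, each at an exact permutation p of 0.0571. This p is also the rate at which exchanged labels alone would separate the groups for a share. Shares within a family are tied, as a larger share of a gene leaves less for the others, so those of Cacnb1 and Cacnb3 are not separate results. Cacnb1 took 17.6% ± 5.04 of the Cacnb level in 3xCR (SD, n = 3) and 30.1% ± 6.53 in GPC6 (SD, n = 4). It held 19.6%, 21.3% and 11.8% in 3xCR replicates 2 to 4 and 28.8%, 21.5%, 33.9% and 36.2% in GPC6 replicates 1 to 4, and the nearest libraries of the groups were 21.3% and 21.5%. Cacnb3 took 69.1% ± 6.15 in 3xCR (SD, n = 3) and 53.0% ± 7.75 in GPC6 (SD, n = 4), with libraries at 66.1%, 65.0% and 76.2% in 3xCR replicates 2 to 4 and 52.5%, 62.0%, 54.4% and 43.2% in GPC6 replicates 1 to 4. Cacna2d2 took 11.2% ± 4.23 of the Cacna2d level in 3xCR (SD, n = 3) and 28.5% ± 10.2 in GPC6 (SD, n = 4), with all GPC6 libraries at 18.8% or more and all 3xCR libraries at 15.8% or less. Cacna1s took 3.65%, 6.69% and 30.8% of the Cacna1 level in 3xCR replicates 2 to 4 and 0.811% to 2.37% in GPC6.

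**Figure D5:**
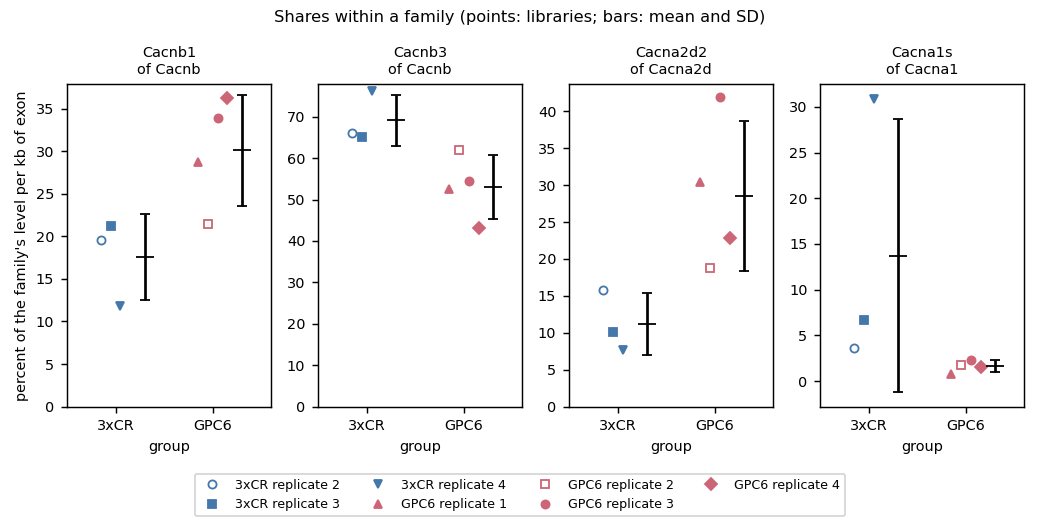
Share of the family's level per kb of exon held by Cacnb1, Cacnb3, Cacna2d2 and Cacna1s. These are the 4 genes, of 34 compared, whose shares did not overlap between groups. Points are libraries and bars the mean and SD (3 3xCR and 4 GPC6 libraries). Cacnb1 and Cacna2d2 held larger shares in GPC6 (30.1% and 28.5% against 17.6% and 11.2%), and Cacnb3 and Cacna1s smaller ones; the 3xCR spread of Cacna1s comes from replicate 4 at 30.8%.

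Other shares overlapped. Among sodium channel alpha genes Scn2a1 held 23.1% ± 3.26 in 3xCR (SD, n = 3) and 30.4% ± 8.03 in GPC6 (SD, n = 4). Scn7a held 26.7% ± 15.2 in 3xCR and 13.8% ± 15.5 in GPC6, from 2.94% in GPC6 replicate 1 to 44.2% in 3xCR replicate 4. Among the alpha1 genes Cacna1h held the largest mean share in both groups, 30.3% ± 3.49 in 3xCR (SD, n = 3) and 23.9% ± 11.7 in GPC6 (SD, n = 4). Cacng7 held between 39.6% and 48.4% of the Cacng level in every library.

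The genes of proteins that work with these channels were read from the same fit. Of 13 sodium channel partners, 12 were on average higher in GPC6 and 1 had an unadjusted p under 0.05 (4.66% of all genes), with a median log2 fold change of 0.64. Sptbn4, the spectrin of axon initial segments, had the largest, 2.19 ± 0.91 (SE, limma adjusted p = 0.730), and Nfasc, neurofascin, the smallest, -0.18 ± 0.70 (SE). Of 15 calcium channel partners, 13 were tested, 10 were higher and 3 lower, and 4 had an unadjusted p under 0.05, with a median of 1.41. Bzrap1, which links channels to the active zone, had the highest mean and a log2 fold change of 1.09 ± 0.59 (SE). Rimbp2, another active zone linker, had the largest, 2.80 ± 0.92 (SE, limma adjusted p = 0.730), and Rrad, a small GTPase that inhibits calcium channels, the smallest, -1.10 ± 0.62 (SE). The 4 genes of the NALCN sodium leak channel complex were all higher, from 0.74 (Nalcn) to 1.78 (Unc80), with 0 at an unadjusted limma p under 0.05. The 4 AMPA receptor subunit genes, clients of the TARPs, were also all higher, from 0.26 (Gria4) to 1.71 (Gria1), with 2 at an unadjusted p under 0.05. Of the RE1 repressor genes, Rest had a log2 fold change of -0.65 ± 0.39, Rcor1 of -0.12 ± 0.23 and Rcor2 of 0.08 ± 0.41 (SE), and all 3 had a limma p above 0.05. None of the partner genes passed an adjusted p under 0.05 in limma.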

How the data were processed

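Bulk poly(A) RNA-Seq of 7 endpoint tumors (3 3xCR, 4 GPC6) was analysed. The authors aligned stranded TruSeq reads to mm10 with STAR 2.5.0a, counted them per gene with Rsamtools and GenomicFeatures and normalized them with DESeq2 1.20.0. The deposited table holds these counts after division by the size factor of each library, which gives a normalized signal that is not corrected for gene length. All 7 columns were used (0 others). Of 19282 rows, 25 with symbols turned into dates (0.254% to 0.361% of reads) were left out. Whole reads were recovered: 100% of values lay within 0.01 of a whole read. Exon lengths, positions and overlaps came from GENCODE M21 (GRCm38), with all 40 symbols matched, Scn2a1 as Scn2a.

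Groups came from the labels. The test was limma 3.58.1 (R 4.3.3) on log2(normalized count + 1) over 14782 genes with a mean of at least 10, two-sided, with Benjamini-Hochberg adjustment; edgeR 4.0.16, DESeq2 1.42.0 and voom were alternatives on recovered reads. Fold changes on this scale understate those of low genes. Other settings were a pseudocount of 0.5 or 5, a filter at 50 or none, equal totals or upper quartiles, library weights, a replicate block, the pan-neuronal score as a covariate and leaving out each library. The fits were tested on simulated counts with the same dispersion (spread beyond counting error) for every gene. That run does not show how the fits behave on libraries that spread as widely as these. Values in every library are given, for each family, for the gene of highest mean, of largest and smallest log2 fold change and of smallest p, and for genes whose groups do not overlap. Group means and single library values of Scn1a, Scn2b, Cacna1b, Cacna2d1, Cacng4 and Scn10a were added after their values were seen. The values of some of these genes are not reported here, although they are part of the counts. The channel genes and all lists were chosen with earlier results of these data known.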

Additional observations from a re-analysis of the deposited data

Results flagged for a closer look

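In the GPC6 group, 3 of 70 quantities (levels, scores and family shares) had 1 library far from the other 3 by Dixon's criterion, where chance alone gives about 1 in 20, here 3.5. The share of Cacna2d4 in the Cacna2d level was 6.3039% in GPC6 replicate 2 where the remaining replicates of the group had 1.38% to 1.84% and 3xCR had 4.06% to 6.33%. The share of Cacnb4 in the Cacnb level was 8.5847% in GPC6 replicate 3 where the remaining replicates had 14.8% to 15.4% and 3xCR had 10.1% to 12.02%. The share of Cacng5 in the Cacng level was 17.889% in GPC6 replicate 3 where the remaining replicates had 9.98% to 11.2% and 3xCR had 9.50% to 34.0%.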

How the results depend on the processing

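The 31 of 34 genes higher in GPC6 became 28 to 32 when 1 library was left out and 28 without GPC6 replicates 1 and 2, an alternative chosen after seeing the data. Genes at an unadjusted p under 0.05, 5 in limma, numbered 10 with edgeR, 20 with DESeq2, 1 with voom, 27 with library weights and 0 to 14 when 1 library was left out, 0 without 3xCR replicate 4 and 14 without GPC6 replicate 2. Leaving out 3xCR replicate 2 gave 10, GPC6 replicate 4 gave 11, and 3xCR replicate 3, GPC6 replicate 1 or GPC6 replicate 3 gave 1. Over all 14782 genes tested, the counts moved too. They were 689 in limma, 991 with edgeR, 1854 with DESeq2, 499 with voom and 5105 with library weights. Leaving out 1 library gave 121 (without 3xCR replicate 4) to 1399 (without GPC6 replicate 2). Library weights gave 18 channel genes at an adjusted p under 0.05, and 1962 of all genes. Genes without overlap of the groups, 1 with all libraries, numbered 1 to 14 when 1 library was left out (14 without 3xCR replicate 2, 8 without GPC6 replicate 2, 4 without GPC6 replicate 4, 2 without GPC6 replicate 3) and 9 without GPC6 replicates 1 and 2. Shares without overlap, 4, numbered 4 to 14 (14 without GPC6 replicate 2, 8 without 3xCR replicate 2). With fewer libraries, groups separate more often by label order alone, and the matching counts over all genes are not given here. The cause of these changes was not tested beyond the libraries left out.

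Replicate numbers did not pair the samples (correlations of deviations of -0.194, 0.118 and 0.296 for numbers 2, 3 and 4). With the replicate block, 1 channel gene had an unadjusted limma p under 0.05 (678 of all 14782 genes). The log2 fold changes of Scn7a, Cacna2d4, Cacnb3 and Cacng4 were then -0.02078, -0.09892, -0.03363 and 0.2057. Number 1 occurs only in GPC6, so the block took up that library whole. The log2 fold changes with the block are therefore those without GPC6 replicate 1, and the block is not a separate check of them.

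With the pan-neuronal covariate, 0 of the 34 genes had an unadjusted limma p under 0.05 (316 of all 14782 genes). In that fit 19 of 34 were higher in GPC6 and the median was 0.004289. The family medians were then 0.007526 (Scn alpha), -0.4321 (Scn beta), -0.4441 (Cacna2d) and -0.03262 (Cacnb), and the log2 fold changes of Scn4b, Cacna2d3, Cacna2d4, Cacnb3 and Cacng7 were -0.4801, -0.3462, -0.5421, -0.629 and -0.1136. Those of Scn1a, Scn9a, Scn2b, Cacna1a, Cacna2d1, Cacnb2 and Cacng4, recomputed after seeing the data, were -0.007431, -0.09247, -0.3841, -0.1519, -0.6477, -0.07676 and 0.3048. Without GPC6 replicates 1 and 2, Scn7a, Cacna2d4 and Cacnb3 had -0.8218, -0.1942 and -0.1133. Scn7a turned to -0.04812 with equal upper quartiles, -0.06548 with voom and -0.2177 with library weights, which gave Cacng5 0.4297. Leaving out 1 library gave -0.5214 to 0.2956 for Scn7a, -0.09892 to 0.6949 for Cacna2d4, -0.03363 to 1.079 for Cacnb3, -0.06299 to 0.4377 for Cacng7, -0.3461 to 0.1309 for Cacng5 and -0.5445 to 0.3096 for Cacng4. Of 32 channel genes recomputed, the other 18 kept their sign under all alternatives run. A kept sign did not always mean a kept size. Over the alternatives, the lowest log2 fold changes of Cacng8, Cacna1d, Scn8a and Cacnb4 were 0.0004647, 0.001051, 0.007526 and 0.01152.

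Depth limits the low genes, as 0 reads in the smallest library allow 4.64 normalized counts.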
